A study of Mus musculus with 11 samples.

Results

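Foxp1, Foxp2, Tle4, Tbr1, Fezf2, Cux2, Bcl11b and Rorb are 8 transcriptional regulators that divide the projection neurons of the forebrain into types, and their RNA was followed in the hippocampus of mice lacking the 1b regulatory region of Scn1a. The 8 were chosen by symbol from the 23645 genes that the tables of both sequencing rounds hold, and all 8 passed the expression filter in each round. Hippocampus of C57BL/6N mice was taken at postnatal day 32 (the labels give the age as adult). Sequenced in the homozygous round were 2 WT and 2 1b-/- mice, the latter carrying the Cas9-made deletion of the 1b interval on both Scn1a alleles. Sequenced in the heterozygous round were 3 WT and 4 1b+/- mice, the latter carrying it on a single allele. No mouse was treated, the deletion is present in all cells from conception, and 1 deletion line was used. Both WT mice of the homozygous round were female, the 1b-/- mice were 1 male and 1 female, the WT mice of the heterozygous round were male, and 3 of the 4 1b+/- mice were male.

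These regulators act in developing and mature neurons. Tbr1, a T-box factor, and Tle4, a Groucho-type corepressor that is recruited by DNA-binding partners, are known from deep-layer neurons that project to the thalamus. Fezf2 and Bcl11b, both zinc finger proteins, are known from deep-layer neurons that project to the brainstem and spinal cord, Cux2, a CUT homeodomain protein, marks upper layers, and Rorb, an orphan nuclear receptor, marks the granular layer and thalamic relay nuclei. Foxp1 and Foxp2 are forkhead repressors. The forkhead pair is strongly expressed by the medium spiny neurons of the striatum, as is Bcl11b, which also labels dentate granule cells and CA1 pyramidal cells of the hippocampus.

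Levels are given as CPM, the count of a gene relative to the library total, scaled by TMM over all 11 libraries, whose totals ran from 20667122 to 36145161 counts. Changes are log2 fold changes fitted within a round, with their standard error (SE). Adjusted p values are those of the edgeR quasi-likelihood (QL) test after Benjamini-Hochberg correction over all genes of the comparison. Scn1a itself stood at 14.0% of the WT mean in 1b-/- mice (adjusted p = 0.0211, edgeR QL test) and at 72.0% in 1b+/- mice. The test used here did not call it in 1b+/- mice (adjusted p = 0.303, edgeR QL test), and the groups overlapped. The paper reports Scn1a as significantly lower in both. The WT libraries of the homozygous round stood apart from the other 9. The 15 markers of striatal medium spiny neurons summed to 11878 and 5032 CPM in these 2 libraries, against 607 and 615 CPM in 1b-/- libraries and 558 to 889 CPM in the heterozygous round. Markers of the labelled tissue were low there: 8 markers of dentate granule cells summed to 154 and 145 CPM against 289 and 332 CPM in 1b-/- libraries, and 9 markers of CA1 and CA3 pyramidal cells summed to 354 and 370 CPM against 889 and 1100 CPM. The dentate sum was 218 to 352 CPM and the CA1 and CA3 sum 699 to 875 CPM in the heterozygous round. In bulk tissue, fewer cells of a type, less RNA per cell and a different share of regions in the dissected piece cannot be told apart. Whether the pieces dissected from these 2 WT mice differed in region from the others was not tested. The rounds also differed in read type (single-end against paired-end) and in the share of reads on the ribosomal RNA precursor Rn45s (0.0718% to 0.144% against 2.38% to 4.45%), so values across rounds are given side by side. A test across rounds is given only as an alternative and for the difference between the genotypes' changes.

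Of the 8 regulators, 3 were lower in 1b-/- than in WT mice of the same round at an adjusted p under 0.05: Foxp2, Foxp1 and Rorb. Their mean levels were 5.81%, 26.9% and 37.3% of WT. No member was called higher. Over all genes tested in this comparison, 3.58% were called in either direction (531 of 14838). The median log2 fold change of the 8 was -0.68, against 0.00 over all genes. In 1b+/- mice none of the 8 was called by the edgeR QL test, by edgeR's likelihood ratio test or by DESeq2, and 3 had an unadjusted p under 0.05 by the QL test. Over all 14630 genes tested there, the QL test called 0%, with a smallest adjusted p = 0.0532. The median log2 fold change of the 8 was 0.11, against 0.00 over all genes.

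**Figure D1:**
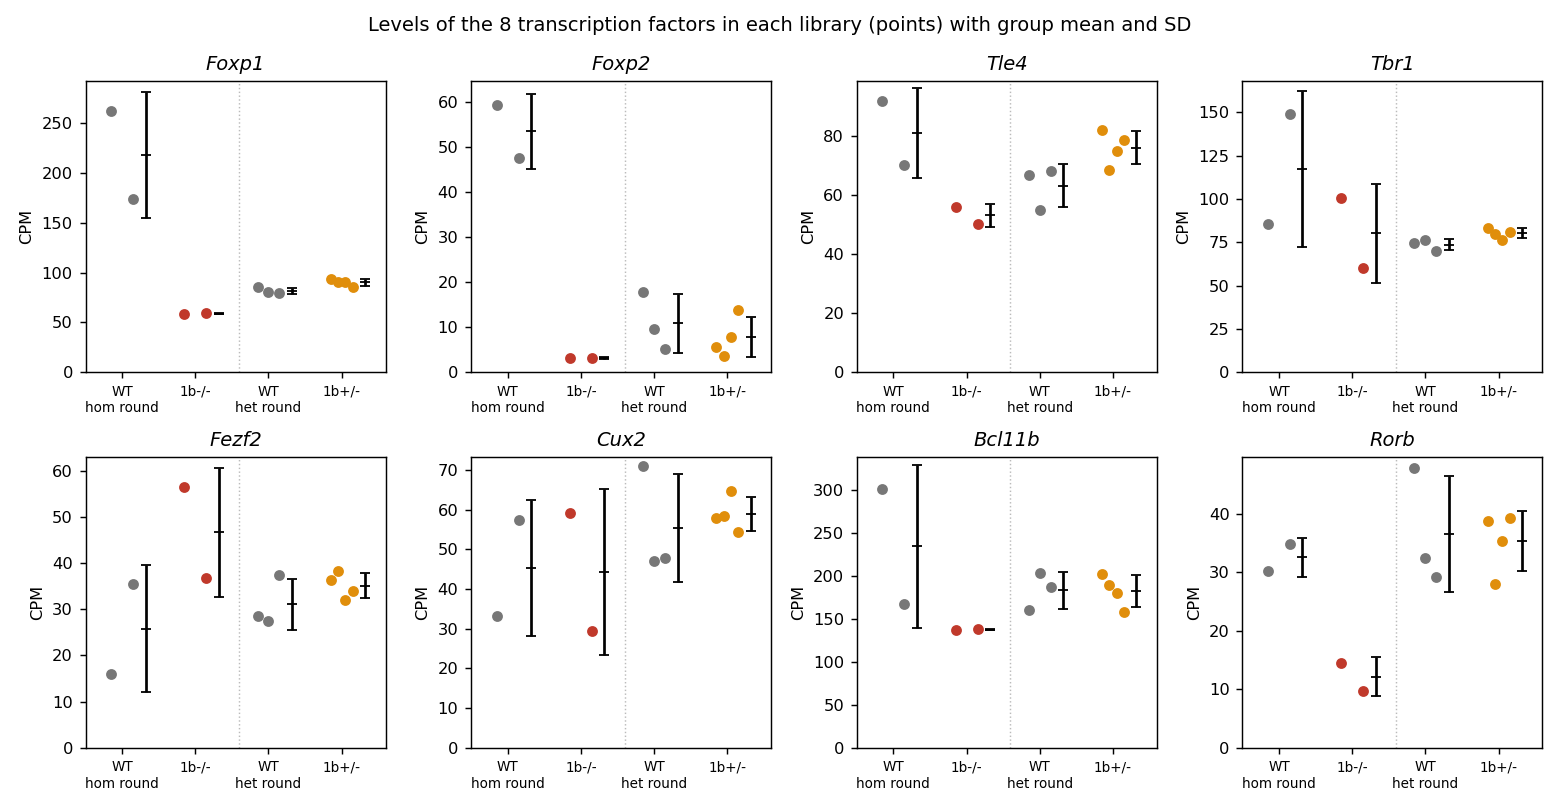
Levels of the 8 regulators in CPM (y axis of each panel, from 0), scaled over all 11 libraries, in the 4 groups (x axis). Points are libraries, and bars give the group mean and SD (n = 2, 2, 3 and 4 from left to right). Foxp1 and Foxp2 are high in the WT libraries of the homozygous round only, while Rorb is low in the 1b-/- libraries only.

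Foxp2 had the largest difference of the 8. It lies on the plus strand of chromosome 6 (mm9, chr6:14851349-15391977; ENSMUSG00000029563.10). It stood at 59.3 and 47.7 CPM in the WT libraries of the homozygous round and at 3.02 and 3.20 CPM in 1b-/- libraries. The groups were far apart and the 1b-/- libraries nearly equal. The log2 fold change was -4.10 (SE 0.18, adjusted p = 0.0126, edgeR QL test). Mice of the heterozygous round had 17.9, 9.51 and 5.03 CPM in WT libraries and 5.54, 3.54, 7.85 and 13.8 CPM in 1b+/- libraries. The level thus varied by 3.56 times among WT mice and by 3.91 times among 1b+/- mice, and the groups overlapped. There the change was -0.50 on the log2 scale, with a 95% interval from -1.57 to 0.58.

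Foxp1, the other forkhead member, lies on the minus strand of the same chromosome (mm9, chr6:98875332-99216526; ENSMUSG00000030067.9). Its level was 263 and 174 CPM in WT libraries of the homozygous round, and 58.1 and 59.3 CPM in 1b-/- libraries. This was a log2 fold change of -1.89 (SE 0.22, adjusted p = 0.0272, edgeR QL test). Foxp1 hardly varied between mice of the heterozygous round, at 85.1, 79.9 and 79.3 CPM in WT libraries and 93.7, 90.1, 90.7 and 85.8 CPM in 1b+/- libraries. All 4 heterozygous libraries lay above all 3 WT libraries. Its log2 fold change of 0.14 (SE 0.05) had an unadjusted p = 0.0119 (adjusted p = 0.299, edgeR QL test).

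Rorb lies on the minus strand of chromosome 19 (mm9, chr19:19005095-19185686; ENSMUSG00000036192.9). It stood at 30.2 and 34.9 CPM in the WT libraries of the homozygous round and at 14.5 and 9.78 CPM in 1b-/- libraries, with a log2 fold change of -1.42 (SE 0.23, adjusted p = 0.0452, edgeR QL test). Its levels in the heterozygous round were close to those of the other WT mice, at 47.8, 32.5 and 29.2 CPM in WT and 38.8, 28.1, 35.4 and 39.3 CPM in 1b+/- libraries. The difference between 1b+/- and WT was -0.05 on the log2 scale (95% interval -0.43 to 0.33), and the groups overlapped. Unlike for the forkhead pair, the WT mean of the homozygous round was 0.892 times that of the heterozygous round. For Foxp1 and Foxp2 this ratio was 2.68 and 4.95.

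The calls of Foxp2, Foxp1 and Rorb were all lost without WT replicate 1 of the homozygous round. That fit held 1 WT mouse and lost the calls of all genes, not of these 3 alone. Its log2 fold changes were -3.92 for Foxp2, -1.55 for Foxp1 and -1.51 for Rorb, the last a larger decrease than with both WT mice. The Rorb call was also lost without WT replicate 2 (log2 fold change -1.31) and without 1b-/- replicate 2 (-1.17). With both WT libraries left out and the 1b-/- libraries set against the WT libraries of the other round, an alternative chosen after the data had been seen, the log2 fold change of Rorb was -1.59, while that of Foxp1 was -0.48 and that of Foxp2 -1.81. In that alternative, genotype and round cannot be told apart, and 58.4% of all genes passed. Over the other 12 alternatives the adjusted p ran from 7.58e-58 to 0.0566 for Foxp2, from 5.23e-13 to 0.101 for Foxp1 and from 1.04e-05 to 0.121 for Rorb, by the edgeR QL test, its likelihood ratio test or DESeq2.

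**Figure D2:**
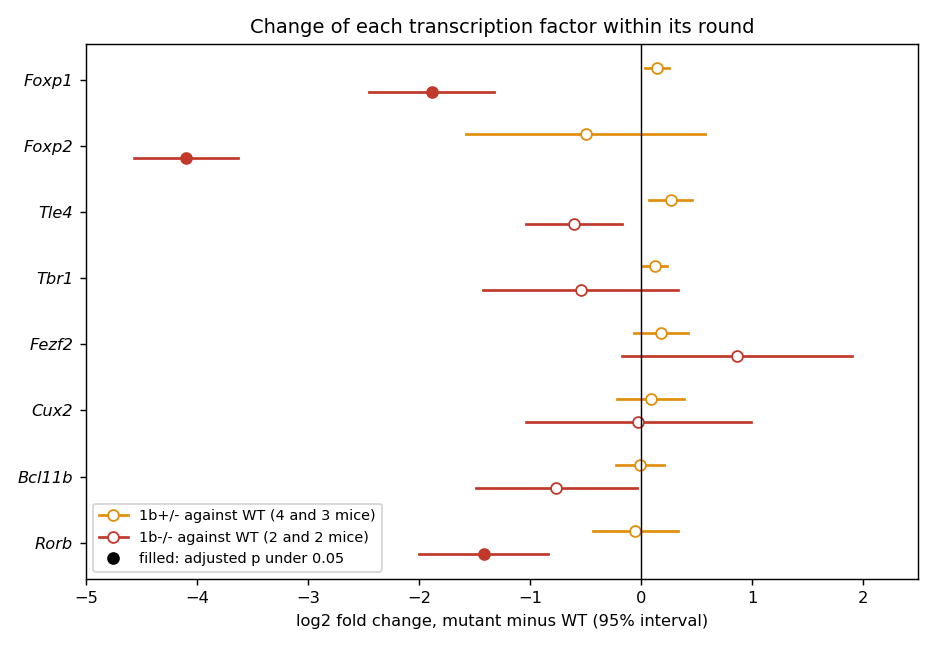
Log2 fold change of each regulator (x axis) in 1b+/- mice (orange) and 1b-/- mice (red) against the WT mice of the same round, with 95% intervals. Filled points have an adjusted p under 0.05 and are Foxp1, Foxp2 and Rorb in 1b-/- mice. The scale runs from -4.10 for Foxp2 to 0.87 for Fezf2, and the orange points of all genes but Foxp2 lie within 0.27 of 0.

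The DNA upstream of the annotated starts of Foxp1 and Rorb is shown because these genes were called lower together and have entries in the promoter table used here (RefSeq, GRCm38.p6). Each line holds the 100 bases before a start, on the gene's own minus strand. Starts A, B and C of Foxp1 follow chr6:99028299-99028398, chr6:99266516-99266615 and chr6:99520994-99521093, and starts A and B of Rorb follow chr19:19001118-19001217 and chr19:19111197-19111296. Capitals mark a CCAAT box (CCAAT) or a GC box (GGGCGG) on either strand.
Foxp1 start A: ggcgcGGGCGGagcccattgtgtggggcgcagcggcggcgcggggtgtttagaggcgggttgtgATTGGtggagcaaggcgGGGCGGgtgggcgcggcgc
Foxp1 start B: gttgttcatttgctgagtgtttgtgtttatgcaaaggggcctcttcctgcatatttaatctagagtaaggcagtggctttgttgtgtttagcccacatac
Foxp1 start C: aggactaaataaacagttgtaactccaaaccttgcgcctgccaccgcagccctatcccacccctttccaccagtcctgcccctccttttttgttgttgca
Rorb start A: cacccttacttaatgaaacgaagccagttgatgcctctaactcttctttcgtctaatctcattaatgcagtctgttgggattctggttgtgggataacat
Rorb start B: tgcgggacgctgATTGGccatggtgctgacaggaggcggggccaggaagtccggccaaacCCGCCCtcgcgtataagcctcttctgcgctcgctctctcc

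In the 300-base windows around these starts (250 bases before and 50 after), the GC content was 75.3%, 48.7% and 60.3% for Foxp1 and 41.0% and 63.7% for Rorb, against a median of 52.7% over all 32851 windows. A window was found for 7 of the 8 regulators, 12 windows in all. CCAAT, searched on both strands, occurred in 4 of the 12 (Foxp1, Rorb, Tbr1 and Tle4) and in 37.4% of all windows. GGGCGG occurred in 7 of the 12 and in 35.7% of all windows. The core letters bound by the members' own families, TGTTTAC for forkhead, TCACACC for T-box and AGGTCA for ROR proteins, were in none of the 12 and in 3.65%, 3.98% and 16.3% of all windows. No searched word contains another, and counts per gene do not show which start a transcript used.

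Among the deep-layer corticothalamic regulators, Tle4 stood at 91.9 and 70.2 CPM in the WT libraries of the homozygous round and at 55.9 and 50.3 CPM in 1b-/- libraries, with no overlap. The log2 fold change was -0.60 (SE 0.17, unadjusted p = 0.0154, adjusted p = 0.111, edgeR QL test). DESeq2 called it lower (log2 fold change -0.60, adjusted p = 0.0377), but called 14.4% of all genes there, against 3.58% by the QL test. With no library left out, its adjusted p ran from 0.00722 with all 11 libraries in 1 fit to 0.191 with sex as a covariate (both edgeR QL test). With a library left out, its log2 fold change ran from -0.79 to -0.39. Tle4 in the heterozygous round stood at 66.8, 55.0 and 68.1 CPM in WT libraries, all below the 82.0, 68.7, 75.1 and 78.6 CPM of 1b+/- libraries. That difference was 0.27 on the log2 scale (95% interval 0.08 to 0.46; unadjusted p = 0.0113, adjusted p = 0.296 by the edgeR QL test).

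Tbr1 varied more between mice of 1 genotype than between genotypes in the homozygous round. It stood at 85.6 and 149 CPM in WT libraries, and at 100 and 60.0 CPM in 1b-/- libraries. Its log2 fold change was -0.54 with a 95% interval from -1.42 to 0.34. It was among the steadiest of the 8 in the heterozygous round, at 74.6, 76.1 and 69.9 CPM in WT libraries and 83.5, 80.0, 76.3 and 80.9 CPM in 1b+/- libraries. The heterozygous libraries lay above the WT libraries without overlap, by 0.12 on the log2 scale (95% interval 0.02 to 0.23; unadjusted p = 0.0292, adjusted p = 0.375 by the edgeR QL test).

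Bcl11b is the subcerebral regulator that hippocampal neurons also express. It stood at 301 and 167 CPM in WT libraries and at 137 and 138 CPM in 1b-/- libraries of the homozygous round. The 1b-/- libraries were nearly equal and lay below both WT libraries, which differed by 1.80 times. The log2 fold change was -0.76 (95% interval -1.49 to -0.04; unadjusted p = 0.0422, adjusted p = 0.175 by the edgeR QL test). The heterozygous round gave 161, 203 and 186 CPM in WT libraries, and 202, 189, 180 and 158 CPM in 1b+/- libraries, a difference of -0.01 on the log2 scale (95% interval -0.22 to 0.20).

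Fezf2 was the only one of the 8 with a higher mean in 1b-/- than in WT libraries of the same round. Its levels were 16.01 and 35.5 CPM in WT, and 56.5 and 36.8 CPM in 1b-/- libraries, with no overlap. Its log2 fold change of 0.87 (95% interval -0.17 to 1.90) had an unadjusted p of 0.0853 by the edgeR QL test. Heterozygous-round levels were 28.5, 27.3 and 37.4 CPM in WT and 36.2, 38.3, 31.9 and 34.0 CPM in 1b+/- libraries, 0.18 higher on the log2 scale with overlapping groups (95% interval -0.07 to 0.42).

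Cux2, the upper-layer regulator, stood at 33.1 and 57.4 CPM in WT and at 59.1 and 29.5 CPM in 1b-/- libraries. Its log2 fold change was -0.02, and the interval from -1.04 to 0.99 is about 1 log2 unit wide to either side. In the heterozygous round it stood at 70.9, 47.1 and 47.8 CPM in WT and at 58.0, 58.3, 64.7 and 54.4 CPM in 1b+/- libraries, and the groups overlapped (log2 fold change 0.09, 95% interval -0.22 to 0.39).

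Counted together, 5 of the 8 regulators had an unadjusted p under 0.05 in 1b-/- mice, all lower, where 26.4% of all genes passed. The groups did not overlap for 6 of the 8, 5 lower and 1 higher, against 59.7% of all genes. Of the 8, 3 had an unadjusted p under 0.05 in 1b+/- mice, all higher (Foxp1, Tle4 and Tbr1), where 11.3% of all genes passed. The same 3 had groups that did not overlap, against 10.9% of all genes. With 4 against 3 mice, an exact two-sided permutation test of the difference of means gave p = 0.0571 for each of these 3 genes, over 35 permutations whose smallest possible p is 0.0286. With 2 against 2 mice, the exact permutation test cannot give a p below 0.333.

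Whether the changes differed between the genotypes was tested in 1 fit of all 11 libraries, as the 1b-/- change minus the 1b+/- change. The difference passed for 4 of the 8 (Foxp1, Foxp2, Tle4 and Rorb), where 27.3% of all genes passed. It was -2.04 for Foxp1 (SE 0.19, adjusted p = 0.000115), -3.61 for Foxp2 (SE 0.77, adjusted p = 0.00737), -0.88 for Tle4 (SE 0.18, adjusted p = 0.00567) and -1.37 for Rorb (SE 0.32, adjusted p = 0.0104), each by the edgeR QL test. At an unadjusted p under 0.05, 5 of the 8 passed, Bcl11b being the other, against 40.1% of all genes. For Foxp1 and Tle4 the changes also pointed in opposite directions, with higher means in 1b+/- and lower means in 1b-/- mice than in the WT mice of the same round. The genotypes were sequenced in different rounds, so a difference between genotypes and one between rounds cannot be told apart.

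**Figure D3:**
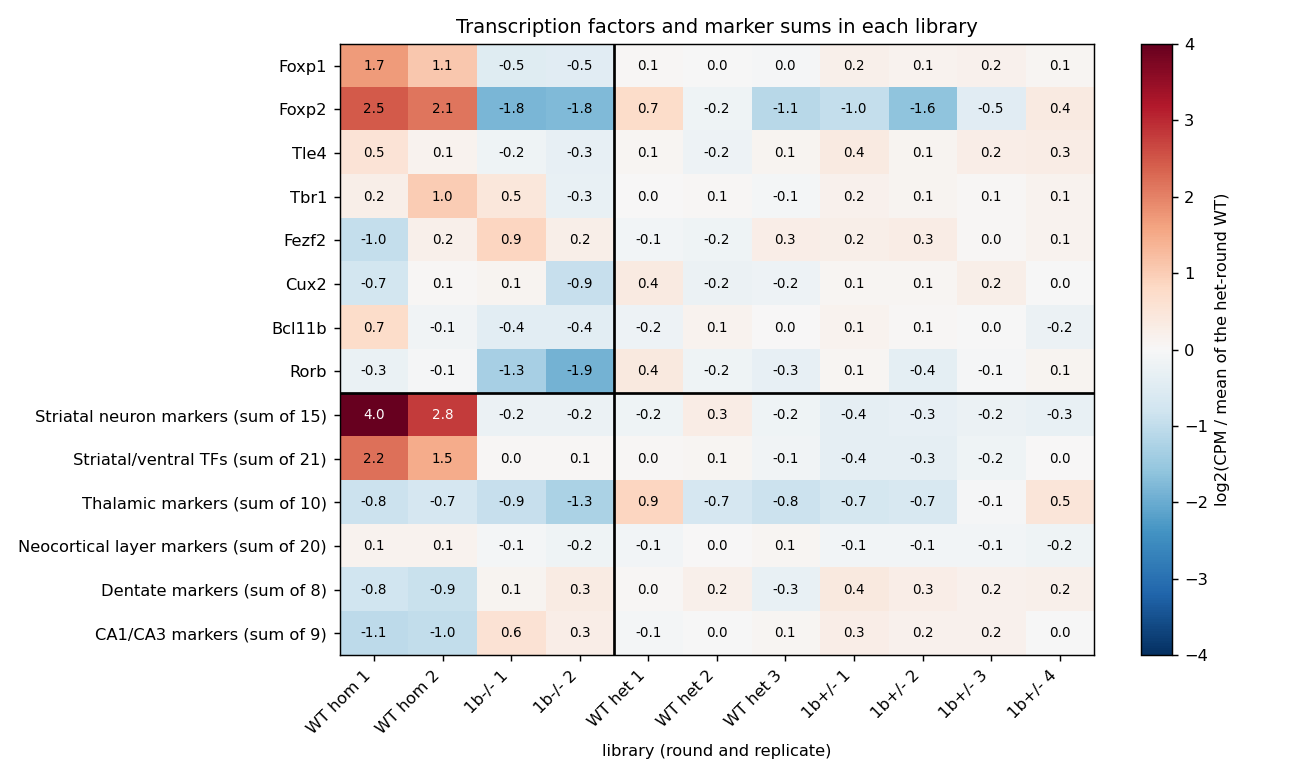
Log2 ratio of each library (columns) to the mean of the WT libraries of the heterozygous round, for the CPM of each regulator and for the summed CPM of 6 lists (rows); TFs are transcription factors. The 2 leftmost columns are high for Foxp1, Foxp2 and the striatal lists and low for the dentate and CA lists, while Rorb is lowest in both 1b-/- columns, at -1.3 and -1.9.

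Striatal markers and the forkhead genes were both highest in the WT libraries of the homozygous round. Within the heterozygous round the striatal sum was 633 to 889 CPM in WT and 558 to 604 CPM in 1b+/- libraries, without overlap. Foxp1 differed the other way, being higher in all 1b+/- than in all WT libraries. Mean Foxp2 was 10.8 CPM in WT and 7.69 CPM in 1b+/- libraries, with overlap. Its highest value, 17.9 CPM, was in WT replicate 1 and not in WT replicate 2, which had the highest striatal sum. All 15 striatal medium spiny neuron markers had an unadjusted p under 0.05 in 1b-/- mice and were lower, 12 of them with an adjusted p under 0.05. In 1b+/- mice 14 of the 15 had a lower mean and 0 were called. There 9 had an unadjusted p under 0.05 by the edgeR QL test, all lower, against 11.3% of all genes. Tac1, which encodes the precursor of substance P, had a log2 fold change of -4.41, and the dopamine receptor gene Drd1a one of -4.29 (both adjusted p = 0.0207, edgeR QL test). Between the WT libraries of the homozygous round, replicate 1 had the higher striatal sum and also the higher Foxp1, Foxp2, Tle4 and Bcl11b, while Tbr1, Fezf2, Cux2 and Rorb were higher in replicate 2. In 1b-/- libraries Foxp1 (at most 59.3 CPM), Foxp2 (at most 3.20 CPM), Bcl11b (at most 138 CPM) and Rorb (at most 14.5 CPM) lay below all 9 other libraries, whose lowest values were 79.3, 3.54, 158 and 28.1 CPM. As 7 of these 9 are of the other round, this order does not separate genotype from round. The share of all genes with this order was not determined. For Foxp2 the gap was 3.20 against 3.54 CPM, with 105 and 108 counts in the 1b-/- libraries. The part of striatal RNA in the differences of Foxp1, Foxp2, Tle4 and Bcl11b was not tested.

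In the heterozygous round the library with the highest thalamic marker sum also had the highest Foxp2 and Rorb. The 10 thalamic markers summed to 803 CPM in WT replicate 1, 617 CPM in 1b+/- replicate 4 and 424 CPM in 1b+/- replicate 3, and to 244 to 280 CPM in the other 4 libraries. WT replicate 1 had the highest Foxp2, Rorb and Cux2 of the round, and 1b+/- replicate 4 the second-highest Foxp2 and Rorb. The order ended there: 1b+/- replicate 3 had less Foxp2 (7.85 CPM) than WT replicate 2 (9.51 CPM) and less Rorb (35.4 CPM) than 1b+/- replicate 1 (38.8 CPM). Without WT replicate 1 the difference between 1b+/- and WT turned from -0.50 to 0.08 on the log2 scale for Foxp2 and from -0.05 to 0.20 for Rorb, none of them called. In the homozygous round the thalamic sum was 245 and 274 CPM in WT and 231 and 182 CPM in 1b-/- libraries, and 0 of the 9 tested markers was called there by the edgeR QL test, 4 having an unadjusted p under 0.05. The part of thalamic RNA in these values was not tested.

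Per kilobase of annotated exon (mm9), the order of the 8 was the same in WT and 1b+/- libraries of the heterozygous round apart from an exchange between Foxp1 and Cux2. Bcl11b led at 22.6 CPM per kb ± 2.65 (SD, n = 3) in WT, and its range did not overlap the next. Tle4, Fezf2 and Tbr1 followed at 13.7, 13.5 and 13.4 CPM per kb and overlapped each other. Cux2 and Foxp1, at 6.90 and 6.83 CPM per kb, overlapped as well, and Rorb (3.30 CPM per kb ± 0.898) and Foxp2 (0.803 CPM per kb ± 0.485) came last without overlap. In WT libraries of the homozygous round the mean of Foxp1 came after those of Bcl11b and Tbr1, at 18.3 CPM per kb ± 5.28 (SD, n = 2), with overlapping ranges, and Foxp2 stood above Rorb (3.98 against 2.94 CPM per kb), without overlap. In 1b-/- libraries Fezf2 had the highest mean, 20.3 CPM per kb ± 6.04 (SD, n = 2), overlapping Bcl11b at 16.9 CPM per kb, and Foxp2 was last at 0.231 CPM per kb.

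**Figure D4:**
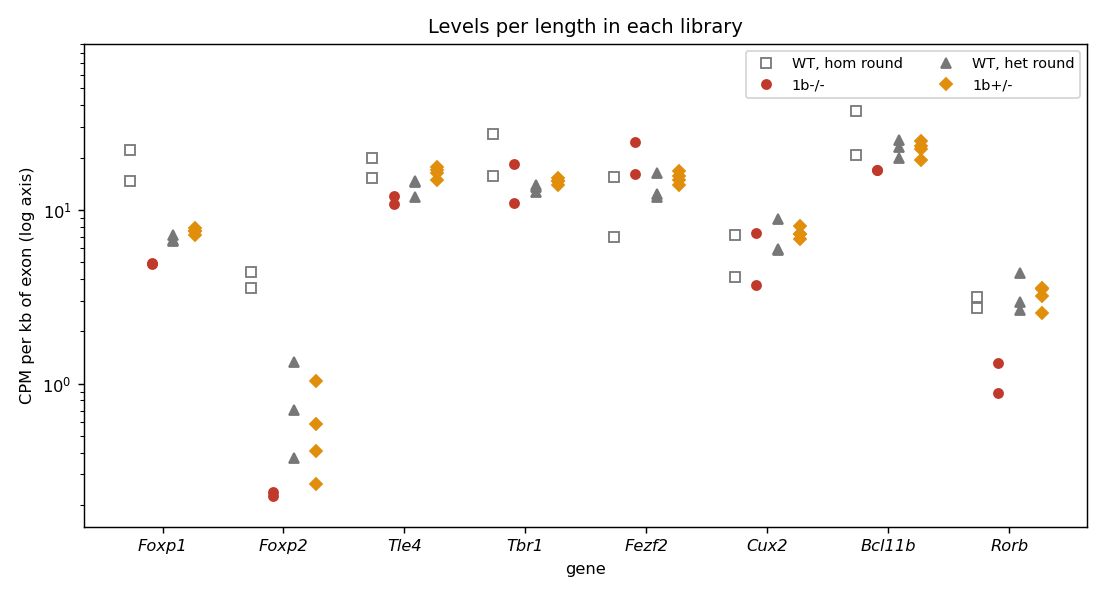
Level per kb of exon of each regulator (y axis, log scale) in each of the 11 libraries; squares are WT and circles 1b-/- libraries from the homozygous round, and triangles are WT and diamonds 1b+/- libraries from the heterozygous round. Foxp2 and Rorb lie lowest, and Foxp2 spans the widest range, from 0.225 to 4.41 CPM per kb.

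The genes most like each called regulator were found among 13691 candidates. The measure was the mean absolute difference, over 11 libraries, of their log2(CPM + 1) deviations from the WT mean of the same round. The added 1 CPM shrinks the deviations of genes with low levels. For Foxp1 they were Tbc1d8, Itga9 and Ddx11, at 0.07, 0.09 and 0.10. For Foxp2 they were Slc5a7, which encodes the high-affinity choline transporter, Syt6, which encodes a synaptotagmin, and Nexn, at 0.26, 0.30 and 0.32. For Rorb they were Kcnab3, which encodes a potassium channel beta subunit, Rcan2 and Rps6ka3, at 0.11, 0.11 and 0.13. As the measure sets each library against its own round, it does not require like levels across rounds: Kcnab3 stood at a mean of 88.6 CPM in WT mice of the homozygous round and 23.9 CPM in those of the heterozygous round, where Rorb stood at 32.6 and 36.5 CPM.

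Other regulators of the same neurons were mostly higher in 1b-/- mice than in WT mice of the same round, 22 of 30 by sign. Of these 30 other transcription factors of pallial projection neurons, 5 were called in 1b-/- mice, all higher, and the median log2 fold change of the 30 was 0.71. Their sum was 1774 and 2216 CPM in the WT libraries and 2984 and 2771 CPM in 1b-/- libraries. The heterozygous round gave 2841 to 2898 CPM in WT and 2867 to 3143 CPM in 1b+/- libraries. Bcl6, a zinc finger repressor, had a log2 fold change of 1.45 (adjusted p = 0.0272) and Nfix, a nuclear factor I protein, one of 1.04 (adjusted p = 0.0273). Neurod2, Neurod6 and Bcl11a were the other 3, named after their values were seen. Bcl6 stood at 19.5 and 22.7 CPM in WT and 50.3 and 64.7 CPM in 1b-/- libraries of the homozygous round. Nfix stood at 198 and 212 CPM in WT and 420 and 421 CPM in 1b-/- libraries. In the heterozygous round Bcl6 ranged from 48.4 to 66.6 CPM and Nfix from 338 to 434 CPM. None of the 30 was called in 1b+/- mice. There 11 had an unadjusted p under 0.05, 10 of them higher, against 11.3% of all genes. The smallest p values belonged to the neuronal helix-loop-helix factor Neurod6 (log2 fold change 0.33, adjusted p = 0.157) and the POU factor Pou3f1 (0.42, adjusted p = 0.175). These p-values and those of the next paragraphs come from the edgeR QL test.

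Close paralogs of the 8 were compared next. Of the 12 listed, 9 passed the expression filter in each round. Of these, 2 were called in 1b-/- mice, both higher: Foxp4, the forkhead relative of Foxp1 and Foxp2, at 46.4 and 49.7 CPM in WT and 84.3 and 102 CPM in 1b-/- libraries (log2 fold change 0.96, SE 0.14, adjusted p = 0.0368), and Bcl11a, the paralog of Bcl11b, at 94.5 and 102 CPM in WT and 155 and 169 CPM in 1b-/- libraries (0.73, SE 0.12, adjusted p = 0.0456). In the heterozygous round the same pair had the smallest p of the list, with log2 fold changes of 0.17 for Foxp4 (adjusted p = 0.327) and 0.19 for Bcl11a (adjusted p = 0.234). Of the 9, 0 were called and only this pair had an unadjusted p under 0.05, against 11.3% of all genes.

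Of 21 transcription factors of the striatum and ventral forebrain, 7 were called in 1b-/- mice, all lower. The median log2 fold change was -2.15, and the sum was 984 and 603 CPM in WT libraries against 222 and 224 CPM in 1b-/- libraries. In the heterozygous round the sum was 197 to 230 CPM in WT and 167 to 216 CPM in 1b+/- libraries. The retinoid receptor genes Rarb and Rxrg had log2 fold changes of -3.51 and -4.01 (adjusted p = 0.0207 for each). Rarb stood at 49.1 and 86.8 CPM in WT and 5.33 and 6.58 CPM in 1b-/- libraries. Rxrg stood at 53.1 and 98.1 CPM against 3.87 and 5.46 CPM. In the heterozygous round Rarb ranged from 6.04 to 10.5 CPM and Rxrg from 3.68 to 10.9 CPM. Of the 21, 17 were tested in 1b+/- mice and 0 called. There 6 had an unadjusted p under 0.05, all lower, against 11.3% of all genes. Rxrg and Rarb again had the smallest p (log2 fold changes -0.87 and -0.40, adjusted p = 0.168 and 0.306).

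Of 20 neocortical layer markers that are no transcription factors, 4 were called in 1b-/- mice. Syt6 (log2 fold change -3.43, adjusted p = 0.0207), Rspo1 (-2.62, adjusted p = 0.0211), which encodes a secreted Wnt agonist, and Otof (-2.16, adjusted p = 0.0452), which encodes otoferlin, were lower. Crym, named after its values were seen, was called higher. In the homozygous round Syt6 stood at 83.5 and 142 CPM in WT and 10.4 CPM in both 1b-/- libraries. Rspo1 stood at 9.71 and 9.92 against 1.40 and 1.76 CPM, and Crym at 40.9 and 58.4 against 145 and 177 CPM. Heterozygous-round ranges were 7.05 to 20.1 CPM for Syt6, 0.925 to 1.75 CPM for Rspo1 and 132 to 207 CPM for Crym. Otof stood at 29.8 and 39.0 against 5.24 and 10.1 CPM. Its heterozygous-round ranges were 20.1 to 38.9 CPM in WT and 6.73 to 11.5 CPM in 1b+/- libraries. The list's sum ranged from 850 to 852 CPM in WT and from 679 to 732 CPM in 1b-/- libraries, and its median log2 fold change was 0.10. The heterozygous-round sums were 706 to 816 CPM in WT and 680 to 708 CPM in 1b+/- libraries. None of the 20 was called in 1b+/- mice. There 5 had an unadjusted p under 0.05, all lower, against 11.3% of all genes. Otof had the smallest adjusted p of the whole table in that comparison (log2 fold change -1.79, adjusted p = 0.0532), and Rprm, a deep-layer marker, followed in the list (-0.82, adjusted p = 0.0777).

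**Figure D5:**
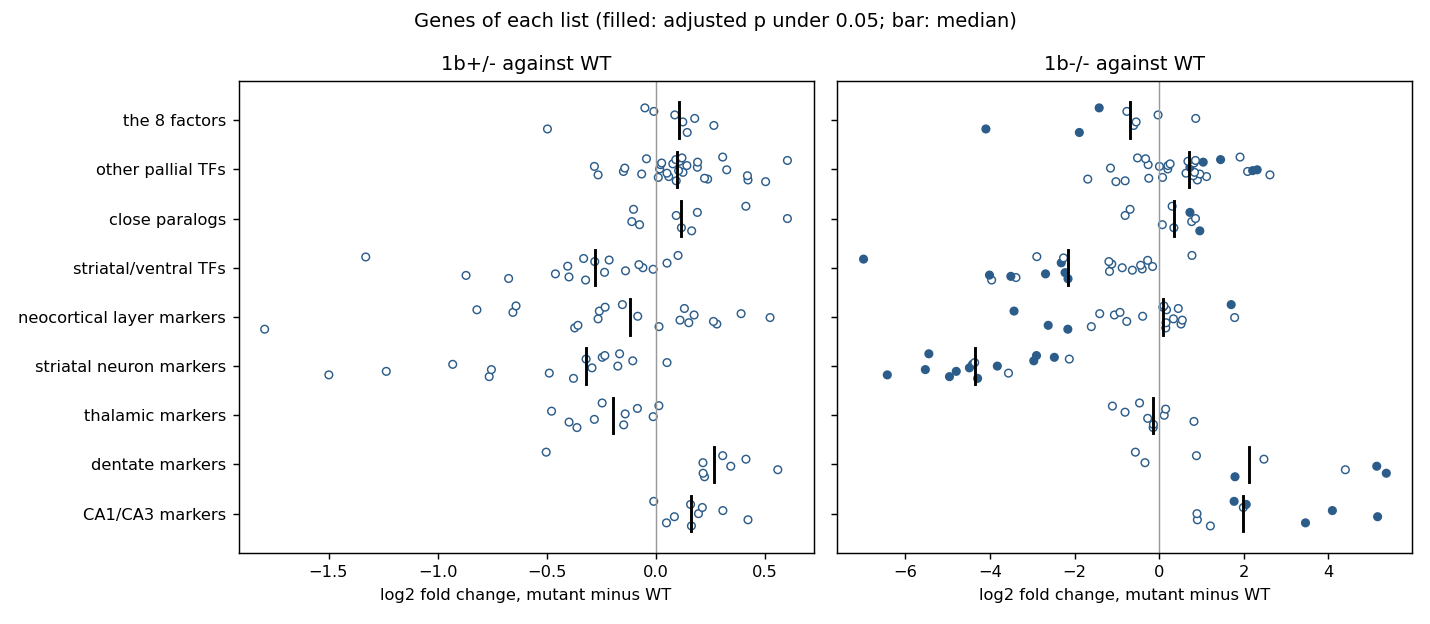
Log2 fold change (x axis, with a different range in each panel) of the tested genes of 9 lists in 1b+/- mice (left) and 1b-/- mice (right) against WT mice of the same round. Points are genes, filled where the adjusted p is under 0.05, and bars are medians. Medians in 1b-/- mice are -4.36 for striatal neuron markers, -0.68 for the 8 regulators and 0.71 for the other pallial transcription factors.

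Of 17 hippocampal markers, 8 were called higher in 1b-/- mice and 9 were not called. Of the 8 dentate granule cell markers 3, and of the 9 markers of CA1 and CA3 pyramidal cells 5, were called in 1b-/- mice, all higher, with median log2 fold changes of 2.14 and 1.99. Of the dentate list, 6 had a higher and 2 a lower mean, each with an unadjusted p under 0.05. The lower ones were Plk5 (log2 fold change -0.56, adjusted p = 0.152) and Dock10 (-0.33, adjusted p = 0.154). C1ql2, at 1.75 and 1.82 CPM in WT and 70.7 and 76.7 CPM in 1b-/- libraries, had a log2 fold change of 5.37 (adjusted p = 0.00298), Prox1, the dentate homeobox gene, one of 1.79 (adjusted p = 0.0191), Spink8 one of 5.17 (adjusted p = 0.0190) and Fibcd1, a CA1 marker, one of 3.46 (adjusted p = 0.0207). In 1b+/- mice 0 of either list were called. An unadjusted p under 0.05 by the edgeR QL test was found for 6 of 8 dentate markers, 5 higher and 1 lower. It was found for 2 of 9 CA1 and CA3 markers, both higher, against 11.3% of all genes. The part of these cell types in the levels of the 8 regulators was not tested.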

How the data were processed

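Hippocampal RNA-seq of 11 mice entered the work. Deposited by the authors were tables of raw gene counts, not normalized. Per the labels and methods, reads of stranded mRNA libraries had been aligned with STAR 2.7.2 (genome mm9) and assigned to genes with featureCounts. Whether that assignment used strand is not given in the sources used here, so genes that overlap or lie antisense to another remain uncertain. Spreadsheet dates had replaced 27 symbols per table (0.300% to 0.372% of counts), which were dropped on joining the tables. No sample column was left unused.

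Genes reaching 1 CPM in any library were tested with edgeR 4.0.16 (R 4.3.3) on TMM-scaled counts by glmQLFit and glmQLFTest, and called at a Benjamini-Hochberg adjusted p under 0.05. Mutants were set against WT mice sequenced in the same round. The genotype difference used all 11 libraries and 4 group means. SEs are |log2 fold change| over the square root of F. The code was tested on simulated counts. Levels of single genes were compared by exact two-sided permutation tests. Foxp2 had only 105 and 108 counts in 1b-/- libraries, so that the closeness of these values is within counting error. P-values with 2 mice per group rest on the spread shared across genes.

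The 8 members, the lists (other pallial factors, paralogs, striatal factors, and markers of neocortex, striatum, thalamus, dentate gyrus, CA1 and CA3, choroid plexus, oligodendrocytes, and astrocytes with microglia) and the comparisons were chosen with earlier results of these data known. Named were the members, the 2 genes of smallest p per list and comparison, Scn1a, and the 3 genes most like each called member. Others are named as chosen after their values were seen. A single selected gene is left out of the text. Alternatives were edgeR's likelihood ratio test, DESeq2 1.42.0, scaling by RLE or by upper quartiles, filtering by filterByExpr or not at all, adding sex to the model, fitting all 11 libraries together, and dropping single libraries. Gene coordinates and exon lengths came from GENCODE on mm9, and promoter sequences from RefSeq on GRCm38.p6.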

Additional observations from a re-analysis of the deposited data

Results flagged for a closer look

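The log2 fold changes of 4 of the 8 regulators differed between 1b-/- and 1b+/- mice by the interaction contrast of edgeR's quasi-likelihood test over 11 libraries. The 1b-/- change minus the 1b+/- change was -2.04 for Foxp1 (adjusted p = 0.000115), -3.61 for Foxp2 (adjusted p = 0.00737), -0.88 for Tle4 (adjusted p = 0.00567) and -1.37 for Rorb (adjusted p = 0.0104). Over all genes tested 27.3% passed, and the genotypes were sequenced in different rounds, so that genotype and round cannot be told apart. Among the groups of 4 samples, no member's 1b+/- values held a library that stood far from the others by Dixon's test.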

How the results depend on the processing

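The count of 3 regulators called in 1b-/- mice became 5 with all libraries in 1 fit (Foxp1, Foxp2, Tle4, Bcl11b and Rorb), where 37.1% of all genes were called against 3.58%, and 5 against the WT libraries of the other round (Foxp1, Foxp2, Fezf2, Bcl11b and Rorb), an alternative added after the data had been seen, in which 58.4% of all genes were called and Tbr1 turned to 0.124. With each library left out it ranged from 0 to 3, being 0 without WT replicate 1, where 0 of all genes were called. The count of 4 whose change differed between genotypes ranged from 4 to 6 with a library left out, and Foxp1, Foxp2, Tle4 and Rorb passed in each of the 16 alternatives. In 1b+/- mice 0 of 8 were called in each of 15 alternatives, while all genes called numbered 191 by the likelihood ratio test, 245 by DESeq2 and 421 without WT replicate 1, which had the highest thalamic marker sum. Of 344 single log2 fold changes refitted in these ways, 14 turned sign, none of them called. Bcl11b in 1b+/- mice became 0.00215 with upper-quartile factors and 0.0557 with sex as a covariate, and ranged from -0.0958 to 0.0775 with a library left out. Also with a library left out, Cux2 ranged from -0.0109 to 0.31 in 1b+/- mice, from -0.60 to 0.42 in 1b-/- mice and from -0.71 to 0.33 for their difference, Foxp2 in 1b+/- mice from -0.95 to 0.0795, and Rorb in 1b+/- mice from -0.19 to 0.20. The causes were not tested. No paired analysis was possible because the labels give no replicate numbers shared between groups. With 2 mice per group, intervals of changes in 1b-/- mice reached about 1 log2 unit to either side, so smaller differences of Tbr1, Fezf2 and Cux2 could not be resolved.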

Other observations

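Glial and choroid plexus markers were measured beside the regulators. Oligodendrocyte markers summed to 22806 and 16566 CPM in the WT libraries and to 11718 and 13562 CPM in the 1b-/- libraries of the homozygous round; all 8 were lower, and 1 was called, Ermn, which encodes a cytoskeletal protein of myelinating cells (log2 fold change -1.23, adjusted p = 0.0299, edgeR's quasi-likelihood test), followed by Mog (-0.69, adjusted p = 0.106). In the heterozygous round the sums were 6379 to 10532 CPM in WT and 9139 to 10744 CPM in 1b+/- libraries. In 1b+/- mice all 8 had higher means, 0 were called and 4 had an unadjusted p under 0.05, against 11.3% of all genes. The smallest p values were those of Cldn11 (0.37, adjusted p = 0.388) and Mobp (0.40, adjusted p = 0.394) by the same test.

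Of 8 astrocyte and microglia markers, 0 were called in either comparison, 2 having an unadjusted p under 0.05 in 1b-/- mice: Gfap, the astrocyte intermediate filament gene, at 1.86 (adjusted p = 0.0504) and Cx3cr1, the microglial fractalkine receptor gene, at -0.50 (adjusted p = 0.161). In 1b+/- mice none of these 8 had an unadjusted p under 0.05, C1qa (-0.14) and Aqp4 (-0.12) having the smallest. Choroid plexus markers ranged from 53.8 to 13321 CPM in sum over the 11 libraries, and 0 of 8 were called, or had an unadjusted p under 0.05, in either comparison. Thalamic markers had no call in 1b+/- mice and none with an unadjusted p under 0.05 (Amotl1 -0.25, Prkcd -0.40), and in 1b-/- mice the smallest p values belonged to Amotl1 (-0.46, adjusted p = 0.121) and Cit (-1.10, adjusted p = 0.130). The remaining genes named by the rule were, in 1b+/- mice, Tac1 among striatal markers (-0.93, adjusted p = 0.0777), Plk5 (-0.50, adjusted p = 0.274) and Dock10 (0.22, adjusted p = 0.283) among dentate markers, and Mpped1 (0.20, adjusted p = 0.432) beside Pou3f1 among CA1 and CA3 markers.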
